A study of Caenorhabditis elegans with 2 samples.

Results

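The histone genes of Caenorhabditis elegans were examined for binding of AHA-1, taking every protein-coding gene whose symbol is his- followed by a number. There were 72 such genes among 19973 protein-coding genes of the nuclear chromosomes. Chromatin immunoprecipitation followed by sequencing (ChIP-seq) had been done on whole L1 larvae of mixed sex. Strain OP124 carries the allele unc-119(ed3) on chromosome III and the integrated transgene wgIs124, from which AHA-1 is made as a fusion to enhanced green fluorescent protein, eGFP. The labels name no promoter for the transgene, no treatment and no age beyond the larval stage. The 2 biological replicates formed 1 group with no second condition, so values were compared between genes and between replicates. AHA-1 is the worm counterpart of mammalian ARNT, which pairs with transcription factors of the bHLH-PAS family such as HIF-1 and AHR-1.

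Histones package DNA into nucleosomes. The core histones H2A, H2B, H3 and H4 form the protein spool, and H1 binds the linker DNA between spools. Most core histone genes in animals are short, lack introns, lie in clusters and are transcribed when DNA is replicated, and many sit in pairs that are transcribed away from each other from a shared promoter. Variant histones such as H3.3 are made outside replication too, usually from genes that have introns. By the products in the annotation and their encoded proteins, the 72 genes were 17 H2A, 17 H2B, 21 H3, 16 H4 and 1 H1 gene.

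A gene was scored by the strongest region whose summit lay between 1000 bp upstream and 200 bp downstream of one of its annotated starts on the ce11 assembly. The regions came from the authors' relaxed list on the pooled replicates, which holds 30000 regions and includes background by design. The thresholded list, kept by the irreproducible discovery rate (IDR), holds the 530 strongest of them. The signal of a region is the authors' value relative to a control on a scale that is not stated, so it ranks regions within a list. The lowest signal in the pooled relaxed list was 2.88, the median was 4.27 and the lowest in the thresholded list was 18.4. Read depth is unknown. The 2 strongest pooled regions, with signals of 254 and 118, lay near the hypoxia genes egl-9 and nhr-57, known targets of HIF-1. The summit near egl-9 lay more than 1000 bp upstream of the egl-9 start from which it was measured, outside the window of that start. The summit near nhr-57 lay inside the nhr-57 window.

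The sequences within 50 bp of the summits of 9 histone regions are shown. They were taken from stronger histone regions, summits between divergent starts and the H3.3 genes. They are not a full set, and the regions of his-67/his-68, his-24 and his-4/his-3 are not shown. A sequence between the starts of his-16 and his-15, which is present unchanged at 3 gene pairs and held no region, is also shown. Of its 36-base words, 0% occur at a single place in the genome, so the missing region is not absence of binding. All are the plus strand of ce11 from the RefSeq genome sequence, written 5′ to 3′. Capitals mark 3 words on either strand: GCGTG, the core typical of bHLH-PAS partners, ACGTG, the core of HIF-1 sites, and GGGACAC, a word seen in several histone promoters.
his-37 (chrV:9546972-9547072): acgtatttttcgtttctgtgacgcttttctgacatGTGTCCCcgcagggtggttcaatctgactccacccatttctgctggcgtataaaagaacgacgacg
his-35/his-41 (chrV:9545373-9545473): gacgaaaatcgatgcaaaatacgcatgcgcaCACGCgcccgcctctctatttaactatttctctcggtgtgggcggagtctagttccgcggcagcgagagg
his-72 intron (chrIII:12368948-12369048): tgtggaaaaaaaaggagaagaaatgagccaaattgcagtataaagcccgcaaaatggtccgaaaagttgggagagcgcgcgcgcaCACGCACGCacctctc
his-72 upstream (chrIII:12369617-12369717): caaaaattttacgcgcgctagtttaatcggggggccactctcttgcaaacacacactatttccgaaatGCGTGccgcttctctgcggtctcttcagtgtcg
his-31/his-32 (chrIV:8334072-8334172): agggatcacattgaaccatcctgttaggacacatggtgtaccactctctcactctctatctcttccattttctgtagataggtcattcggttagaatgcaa
his-1 (chrV:16041514-16041614): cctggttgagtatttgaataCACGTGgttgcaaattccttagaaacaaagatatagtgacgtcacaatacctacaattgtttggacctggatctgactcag
his-61/his-62 (chrIV:7486277-7486377): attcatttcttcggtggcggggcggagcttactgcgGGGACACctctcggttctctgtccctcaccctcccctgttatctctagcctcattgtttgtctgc
his-60/his-59 (chrIV:7488085-7488185): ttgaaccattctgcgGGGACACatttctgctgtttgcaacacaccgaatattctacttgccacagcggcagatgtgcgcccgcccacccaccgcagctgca
his-71 (chrX:7982171-7982271): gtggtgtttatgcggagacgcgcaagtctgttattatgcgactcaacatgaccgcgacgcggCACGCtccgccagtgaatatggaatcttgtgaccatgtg
his-16/his-15 between starts (chrII:13818144-13818370): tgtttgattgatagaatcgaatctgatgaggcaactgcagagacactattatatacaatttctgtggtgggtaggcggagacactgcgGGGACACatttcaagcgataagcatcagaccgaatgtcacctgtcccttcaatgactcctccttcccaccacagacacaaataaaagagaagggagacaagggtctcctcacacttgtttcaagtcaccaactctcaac

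AHA-1 regions were found at a minority of histone genes, and the strongest were at an H4 gene, a divergent H4 and H2A pair and the H1 gene. Thresholded peaks lay at 3 of 72 histone genes, 4.17%, beside 2.73% of all protein-coding genes, a share near the background. These 3 genes, his-37, his-67 and his-68, carried 2 distinct peaks. A pooled relaxed region lay at 21 histone genes, 29.2%, beside 43.3% of all protein-coding genes, and 51 had none. In replicate 1 alone the counts were 21 histone genes, 29.2%, beside 37.7% of all genes, and in replicate 2 they were 15, 20.8%, beside 28.9%. Each replicate list had a region in the window of 11 histone genes, and 46 had no region in any list. The regions in the window need not be the same in both replicates, and at his-35 they were not. The shares of all protein-coding genes for these counts were not computed. The other 5 genes without a pooled region, his-38, his-42, his-64, his-69 and his-74, had a region in a single replicate list, with signals from 2.02 to 2.88. Because divergent genes share a promoter, the 21 genes with a region and the 21 distinct regions are not the same units. Of the regions, 8 fell in the windows of 2 histone genes and 13 in the window of 1. Their deposited −log10 q-values, where a low value means weak support, ran from 0.202 inside his-59 to 3.33 at his-37 and others. The list includes background, so the weaker regions may be background. Keeping only regions in a gene's window whose nearest protein-coding start was its own left 10 histone genes, 13.9%, beside 37% of all protein-coding genes. A region nearest to a histone start but outside the window of that gene was dropped by this rule.

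**Figure D1:**
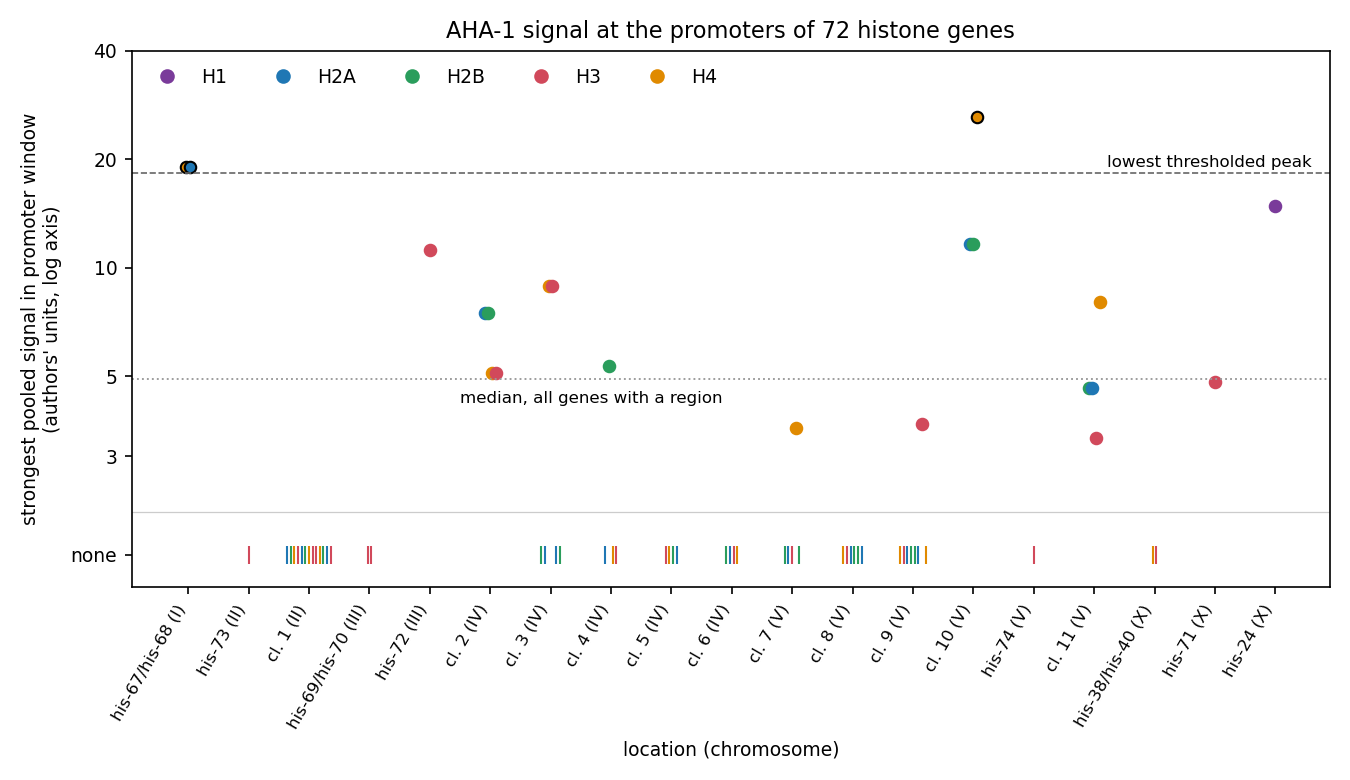
Strongest pooled AHA-1 signal (authors' units, log axis) in the promoter window of each of the 72 histone genes, by location along the genome and coloured by class. Bars at the bottom are the 51 genes with no region, black rims mark thresholded peaks, the dashed line is the lowest thresholded peak (18.4) and the dotted line the median over all genes with a region (4.92); 3 genes lie above the dashed line.

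Where histone genes had a region, its median signal was higher than over all genes with a region, and a larger share of summits lay close to the start. The median of the strongest signal was 7.48 over the 21 histone genes with a region and 4.92 over the 8655 protein-coding genes with one, and the median rank in the pooled list was 3272 against 10682. Replicate regions overlapped in both lists by at least 1 bp at 9 of 21 histone regions, 42.9%, beside 15.3% of all pooled regions. The weakest of the 9, at 3.28 inside his-59, overlapped the same replicate 2 region as its neighbour of 5.12. A single histone region, the one upstream of his-2, overlapped no region of either replicate list, beside 23.6% of all pooled regions. The strongest summit lay within 300 bp of the start at 16 of 21 histone genes, 76.2%, beside 49.5% of genes with a region. The annotated start was the coding start at 65 of 72 histone genes, beside 23.5% of all protein-coding genes. The start is thus not a like landmark in both sets. Starts of divergent histone pairs were at most 368 bp apart, so a summit between them lay close to both. Genes that share a region or a duplicated promoter are not independent, and no test was made of these differences.

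**Figure D2:**
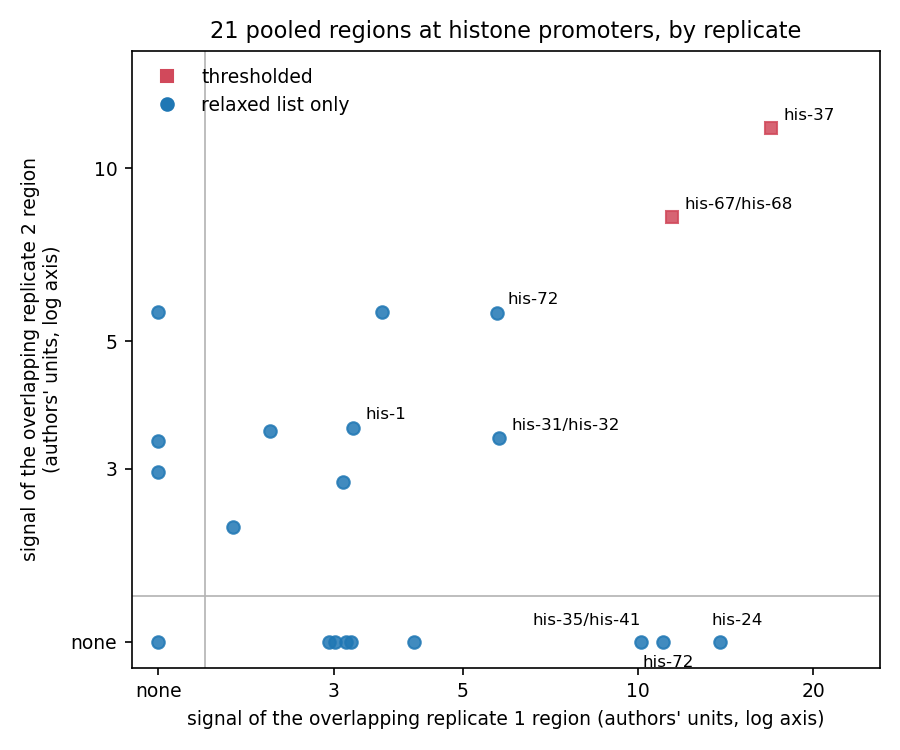
The 21 pooled regions at histone promoters, each placed by the signal of the overlapping region in replicate 1 (x axis) and replicate 2 (y axis), both in the authors' units on log axes, with "none" where a list has no overlapping region. The thresholded regions of his-37 and his-67/his-68 are the highest among the 9 regions listed in both replicates, while his-24 and his-35/his-41 are listed in replicate 1 only.

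Among the H4 genes, his-37 had the highest signal of any histone gene. Its region at chrV:9546864-9547179 is intergenic, with a summit 83 bp upstream of the start. The signal was 26.3 in the pooled list, rank 274, with 16.9 at rank 305 in replicate 1 and 11.7 at rank 178 in replicate 2. The rank was within the top 530 in both replicates. Unlike the other H4 genes, his-37 has an intron and its annotated start lies upstream of its coding start. Even so, all 16 H4 genes encode the same protein of 103 residues, so the gene with the strongest region does not differ in its product. The printed his-37 sequence holds the reverse complement of GGGACAC and neither GCGTG nor ACGTG.

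The H4 gene his-67 faces the H2A gene his-68 across 368 bp, the longest gap of any divergent histone pair, and the summit lay 113 bp from the start of his-68 and 256 bp from that of his-67. The signal was 19.0 in the pooled list, rank 499, with 11.4 at rank 631 in replicate 1 and 8.21 at rank 392 in replicate 2. It passed the IDR threshold by a small margin, the lowest signal kept being 18.4 and the highest left out 18.3. The same summit also lies in the promoter window of alg-5, an Argonaute gene. Of the other H4 genes, his-31 shared a region of 8.92 with the H3 gene his-32, his-1 had one of 8.05, his-60 shared one of 5.12 with the H3 gene his-59, and his-5 had one of 3.59. The remaining 10 H4 genes had none. The his-31 and his-32 region was listed in both replicates, at 5.76 and 3.39. The his-1 region, also listed in both at 3.23 and 3.53, lay 956 bp upstream of his-1, nearer to the start of the H3 gene his-2 at 719 bp, and its sequence holds CACGTG.

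The H1 gene his-24, which encodes a linker histone, had the strongest histone region outside the thresholded list. The pooled signal was 14.8 at rank 757, and the summit lay 12 bp downstream of the start, in a UTR exon. In replicate 1 the overlapping region had a signal of 13.8 at rank 442, and replicate 2 listed none there. The promoter window of a non-coding RNA gene, M163.19, holds the same summit. A further pooled region of 7.79 lay at the other end of his-24, outside the window, and was listed in both replicates at 4.59 and 2.11.

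The H2A gene his-35 and the H2B gene his-41 face each other across 247 bp in the same cluster as his-37. The region between them at chrV:9545265-9545580 had a pooled signal of 11.6, rank 1147. Its signal was 10.1 in replicate 1, rank 803, and replicate 2 listed no overlapping region. Both genes have an intron and encode proteins that differ from the commonest of their class, with 99.2% identity for his-35 and 97.6% for his-41. A weaker region of 6.27 lay in annotated UTR exons of his-41 and C50F4.6, nearest to the C50F4.6 start at 171 bp, and fell in the windows of his-35 and his-37.

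In the other H2A and H2B genes the regions were weaker. The divergent his-61 and his-62 shared a region of 7.48, listed at 2.33 in replicate 1 and 3.49 in replicate 2. The divergent his-4 and his-3 shared one of 4.64, listed in replicate 1 alone at 2.94. The H2B gene his-48 had one of 5.36, 841 bp upstream and beyond its divergent partner his-47, listed in replicate 1 alone at 4.12. The H2A protein was the same in 16 of 17 genes, of which 3 had a region, and his-35 was the exception. The 17 H2B genes encoded 5 different proteins, and 3 of the 11 that differ from the commonest had a region (his-41, his-48 and his-62) beside 1 of the 6 with the commonest (his-4). The shortest H2B gene, his-39, which encodes 67 residues, had no region.

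H3 genes are divided into those with the commonest protein, 15 genes of which 4 had a region, and 6 that encode another protein, of which 2 had a region. The variants include the H3.3 histones, which replace H3 in chromatin outside replication. The H3.3 gene his-72, which has 2 annotated starts, had 3 regions in its windows, more than any other histone gene. The strongest, in an intron 52 bp downstream of an annotated start, had a pooled signal of 11.2 at rank 1229 and was listed in both replicates, at 5.71 and 5.60. The second, 617 bp upstream at chrIII:12369509-12369824, had a pooled signal of 9.07 and was listed at 11.0 in replicate 1 and not in replicate 2. It also lies in the promoter window of rpt-6, a proteasome subunit gene. The third lay in an intron 211 bp upstream of the inner start and was counted only through that start. It had a pooled signal of 5.82 and was listed in replicate 2 alone at 3.35, so the 3 regions differed in which replicate listed them. A snoRNA gene, Y49E10.36, shares the windows of the strongest and the third. Within 1000 bp of the gene body, his-72 and his-71 had 4 pooled regions each.

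The other H3.3 gene, his-71, had a region of 4.83 in its window, 151 bp upstream, listed in replicate 1 alone at 3.21. The his-71 region and the 2 stronger his-72 regions held GCGTG near the summit. The H3.3-like gene his-74 had no pooled region in its window, and a replicate 2 region there had a signal of 2.79. A pooled region of 16.3, rank 634 and listed in both replicates at 10.2 and 5.53, lay within 1000 bp of his-74 and 37 bp from the start of ccch-3, outside the his-74 window. The H3.3-like genes his-69 and his-70 and the short gene his-73, with 46 residues, had no pooled region in their windows. Among H3 genes with the commonest protein, his-32 had the highest signal at 8.92, followed by his-59 at 5.12, his-17 at 3.68 and his-2 at 3.38. The his-17 region lay 938 bp upstream, nearest to frpr-13, a predicted neuropeptide receptor gene, at 126 bp.

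An intron was present in 8 of the 72 genes (his-24, his-35, his-37, his-41, his-57, his-71, his-72 and his-74). A region was found at 6 of these 8, 75%, beside 43.7% of the 19288 protein-coding genes with an intron. It was found at 15 of the 64 histone genes without an intron, 23.4%, beside 32.8% of the 685 such genes in all. Apart from his-57, the intron-bearing histone genes also had promoter sequence that is nearly all found at a single place in the genome, from 97.7% to 100%, so the gene structure and the sequence cannot be told apart here.

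Histone genes repeat each other in sequence, which bears on where a read can be placed. For each gene the words of 36 bases in its promoter window were counted that occur at 1 place in the genome on either strand. The median share of such unique words was 23.3% over the 72 histone genes, with a range from 0% to 100%, and 100% over all protein-coding genes. It was 87.3% for the 21 histone genes with a region and 3.09% for the 51 without. With words of 50 bases the medians were 94.8% and 4.34%. The read length and the treatment of reads that match several places are not given in the sources used here. Their part in the low number of histone genes with a region was not tested.

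Set against all genes of like uniqueness, a like share of the histone genes with repeated promoters had a region, and a larger share of those with unique promoters. Of the 40 histone genes with under 50% unique words 2 had a region, 5%, beside 5.58% of the 573 protein-coding genes in that range. From 50% to under 90%, 11 of 22 histone genes had a region, 50%, beside 30.5% of 2103 genes. At 90% and over, 8 of 10 had a region, 80%, beside 46.1% of 17297 genes, and 3 of 10 had a thresholded peak, 30%, beside 2.93%. No histone gene in the lower ranges had one, 0 of 22 beside 1.76% and 0 of 40 beside 0.524%. Of the 3 genes, his-67 and his-68 share 1 peak and lie just above the limit, at 91.6% and 93.7% unique words. The 2 genes of the lowest range with a region were his-48 and his-17, whose regions lay 841 and 938 bp upstream in sequence that was 96.1% and 100% unique. The 2 genes of the highest range without a pooled region were his-69 and his-74. The regions themselves had at least 73.3% unique words at all 21 histone regions, and 0.403% of all pooled regions were under 50% unique. The groups are small, the limits of 50% and 90% were chosen after the values were seen, and the comparison is a description.

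**Figure D3:**
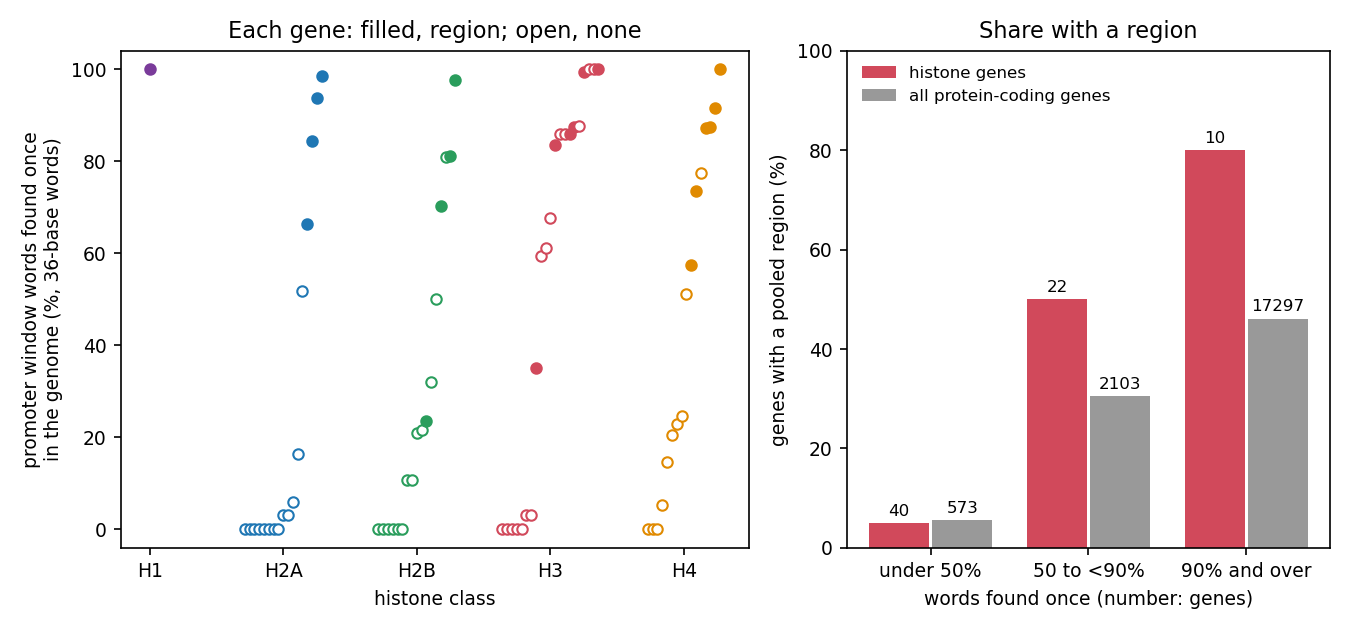
Left, share of 36-base words in the promoter window found at 1 place in the genome for each histone gene by class, filled where the gene had a pooled region and open where it had none. Right, percent of histone genes (red) and of all protein-coding genes (grey) with a pooled region in 3 ranges of that share, with the number of genes above each bar; the shares are alike under 50% (5% and 5.58%) and stand at 80% and 46.1% at 90% and over.

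Divergent pairs made up most of the family. A total of 31 pairs, holding 62 of the 72 genes, had starts facing away from each other across 227 to 368 bp. They were 16 H2A and H2B pairs, 14 H3 and H4 pairs and the H4 and H2A pair his-67/his-68. A summit lay between the starts at 6 of the 31 pairs: his-67/his-68, his-35/his-41, his-31/his-32, his-61/his-62, his-60/his-59 and his-4/his-3. These were 3 of the H2A and H2B pairs, 2 of the H3 and H4 pairs and the mixed pair. In 16 of the 31 pairs the sequence between the starts is present unchanged at another pair, at up to 4 pairs, and none of these 16 had a summit there. Of 8 pairs whose intervening sequence consisted only of unique words, 6 had a summit between the starts. The same shares were not computed for divergent pairs of other genes, so these counts have no background beside them.

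Most histone genes, 61 of 72, lay in 11 clusters of at least 3 genes joined by gaps of at most 10 kb. Including 1000 bp to each side, the clusters spanned 80220 bp and held 16 pooled regions, 1.99 per 10 kb, beside 2.99 per 10 kb over the 6 nuclear chromosomes. The thresholded list had 1 peak inside a cluster, that of his-37. Regions were spread unevenly: clusters 2, 10 and 11, numbered along the chromosomes, held 4 regions each, clusters 3, 4, 7 and 9 held 1 each, and clusters 1, 5, 6 and 8 held none. Cluster 10 on chromosome V, with his-35, his-41 and his-37, had 8.08 per 10 kb with a highest signal of 26.3, and 99.4% of its 36-base words were unique. Cluster 2 on chromosome IV, his-61 to his-59, had 8.29 per 10 kb with a highest signal of 7.48 and 90.2% unique words. Cluster 11 on chromosome V, his-4 to his-1, had 8.53 per 10 kb with a highest signal of 8.05 and 82.6% unique words. The 3 dense clusters were the 3 with the most unique sequence.

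The largest cluster, cluster 1 on chromosome II with 13 genes from his-16 to his-42, held no pooled region in 12938 bp, and 19.5% of its words were unique. Cluster 8 on chromosome V, with 6 genes from his-50 to his-53, held no region in any of the pooled and replicate lists, and 0% of its words were unique. Cluster 9 repeats the sequences between the starts of cluster 8 at 3 of its 4 pairs. It held 1 region in 11052 bp, that of his-17 at 3.68, with a summit 938 bp upstream of his-17. The sequence between the starts of his-17 and his-18 is not present whole at another pair. Even so, only 1% of its 36-base words were unique. Clusters 5 and 6 on chromosome IV had 48.4% and 62.7% unique words and no pooled region, and each had 1 region in a single replicate list.

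**Figure D4:**
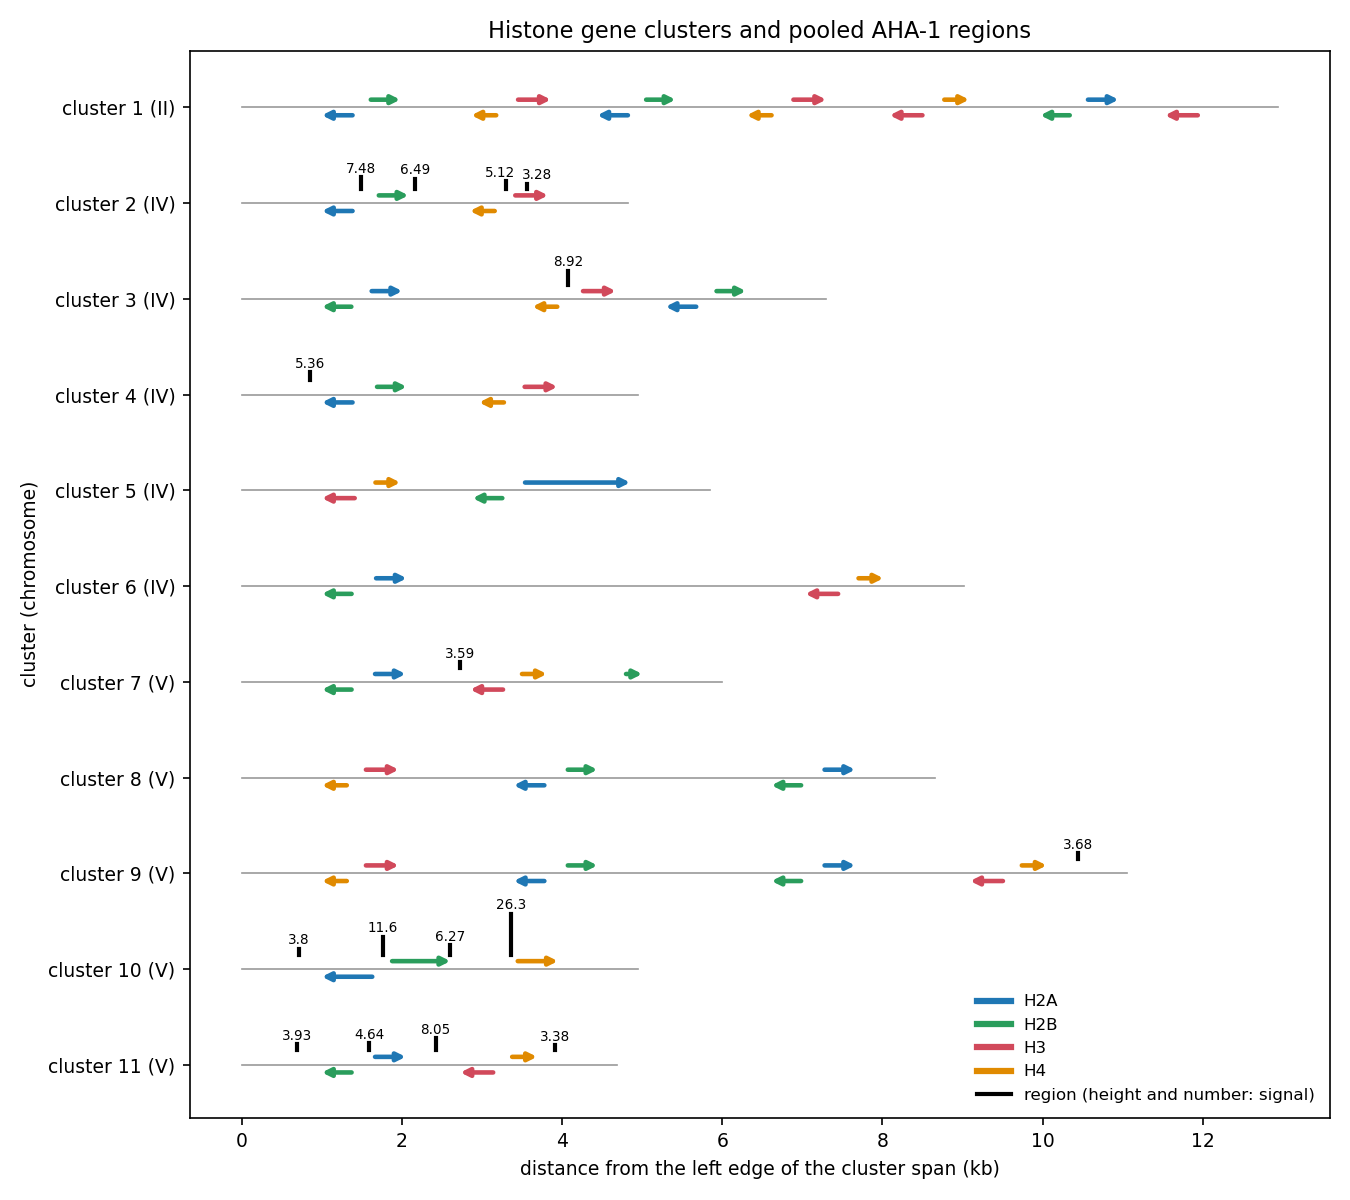
The 11 histone gene clusters drawn to scale as distance in kb from the left edge of each cluster span, with genes as arrows coloured by class (upper row, plus strand; lower row, minus strand) and pooled AHA-1 regions as black bars whose height and number give the signal. Regions gather in clusters 2, 10 and 11, and clusters 1, 5, 6 and 8 have none.

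The sequence between divergent starts had a word in common that is rare elsewhere. GGGACAC, on either strand, lay within 300 bp upstream of the start at 50 of 72 histone genes, 69.4%, beside 1.57% of all protein-coding genes, and between the starts of 24 of 31 divergent pairs. Histone genes with a region held it at 15 of 21, 71.4%, and those without at 35 of 51, 68.6%. The word was chosen after the sequences were seen, and copies of 1 promoter count more than once. Within 50 bp of the summit it was found in 4 of 21 histone regions, 19%, among them his-37, his-61/his-62 and his-60/his-59, beside 2.64% of thresholded peaks and 0.49% of all pooled regions. In promoter sections of 101 bp centred 100 bp upstream of the start, it was found at 39 of the 72 histone genes, 54.2%, and at 0.631% of all protein-coding genes.

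The words linked to bHLH-PAS factors were found upstream of fewer histone genes than GGGACAC was. GCGTG lay within 300 bp upstream of the start at 7 of 72 histone genes, 9.72%, beside 19.1% of all protein-coding genes, and ACGTG at 21, 29.2%, beside 27.2%. Near summits GCGTG was found in 4 of 21 histone regions, 19%, beside 27.2% of thresholded peaks, 6.83% of all pooled regions and 7.89% of the promoter sections of all genes. The 4 were his-35/his-41, both stronger regions of his-72, and his-71. ACGTG was found in 2 of 21, 9.52%, beside 19.8% of thresholded peaks, 9.23% of all pooled regions and 12.3% of promoter sections. In 1 of these, at his-1, it was part of CACGTG. Other words of the form CANNTG, the general bHLH site, were found in 10 of 21, 47.6%, beside 36.8% of thresholded peaks and 30.9% of all pooled regions. They were found in the promoter sections of 62.5% of the histone genes and 29.6% of all protein-coding genes. Neither thresholded histone peak had GCGTG or ACGTG within 50 bp of its summit.

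A list of 25 genes outside the his- family was taken, of histone variants and of genes that make, carry or read histones. It included 8 H1-like linker histone genes, 2 H2A variant genes and 2 centromeric H3 genes. A pooled region lay at 15 of the 25, 60%, beside 43.3% of all protein-coding genes, and a thresholded peak at 3, 12%, beside 2.73%. The median of the strongest signal was 8.43 over these 15 genes and 4.92 over all genes with a region. The thresholded genes were htz-1, which encodes the variant H2A.Z, at 29.9, lin-53, which encodes a histone-binding protein of the RbAp48 type, at 27.1, and nap-1, which encodes a nucleosome assembly chaperone, at 24.8. Their overlapping signals in replicates 1 and 2 were 19.4 and 11.0 for htz-1, 15.2 and 11.1 for lin-53, and 18.6 and 3.55 for nap-1, and the replicate 2 value of nap-1 was the lowest of the 3. The htz-1 peak was nearer to wapl-1, at 161 bp, and the lin-53 peak nearer to nra-2, at 229 bp. The next highest were cdl-1, whose product binds the stem-loop of histone mRNA, at 16.6, hira-1, the H3.3 chaperone, at 15.4, and hil-7, an H1-like gene, at 13.4. Among the 8 H1-like genes hil-1 to hil-8, only hil-7 and hil-3, at 4.92, had a pooled region. The centromeric H3 genes hcp-3 and cpar-1 had regions of 6.94 and 2.95.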

How the data were processed

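AHA-1 ChIP-seq was analysed in 2 biological replicates. The authors deposited region lists on ce11 and ce10, for each replicate and pooled; the ce10 lists were not used here. Column 7 is the authors' signal relative to a control, and the deposited −log10 q-value was not used for ranking. The aligner, peak caller, IDR threshold, read length and depth are not given in the sources used here, and the control was not analysed here. Fragments were 150 to 350 bp, per the labels.

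Genes and starts came from the Ensembl release 115 annotation of WBcel235, the same assembly as ce11, coordinates being 1-based. Because 72 genes shared 50 Ensembl names, RefSeq symbols matched on gene identifier were used, which gave 72 distinct symbols. Class came from RefSeq products, proteins from translated coding sequence. Unique words of 36 and 50 bases and the assignment of summits to windows were tested on simulated data. Python 3.11.15 with numpy 2.4.6, Biopython 1.88 and matplotlib 3.10.9 was used. No p-value was computed. The genes described are those with a thresholded peak, the 20 of highest signal, variants by protein, cluster extremes and, for the list of 25, the thresholded and the next highest. Members, lists and rules were chosen with earlier results of these data known.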

Additional observations from a re-analysis of the deposited data

How the results depend on the processing

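The share of histone genes with a pooled region was below that of all protein-coding genes under 8 of 8 alternatives, while the share with a thresholded peak was below it under 1 of 8. With a window of 2000 bp upstream to 500 bp downstream, 5 histone genes had a thresholded peak (his-35 and his-72 were added). That was 6.94%, beside 3.44% of all genes. Among the stronger 265 thresholded peaks none lay at a histone gene, 0 of 72, and 1.34% of all genes had one. Without replicate 2, his-37 and his-24 were at the top 530 regions, 2.78% beside 2.63% of all genes. Without replicate 1 his-37, his-67 and his-68 were, 4.17% beside 2.31%. Keeping only regions in a gene's window whose nearest protein-coding start was its own gave 10 genes, 13.9%, beside 37% of all genes. The distinct regions were then 13 and the median signal 10.1. A window of 500 bp upstream to 100 bp downstream gave 12 distinct regions and a median of 8.92, and overlap by at least 1 bp gave a median of 7.76. In the replicate lists, whose signals are on their own scale, the median was between 3.49 and 3.64. Regions at or above the list median left 18 histone genes with a region, 25%, beside 27.5% of all genes. The shares were thus close once weaker regions were dropped. The same cut left 10 regions inside clusters. The other 39 of 52 values were counted as unchanged, for counts and shares a move of at most 1.5 times. For medians the limit was 0.106, the SD of the medians of the replicate lists. Those lists are on another scale, so this limit does not measure how far the pooled median varies. No paired analysis was possible because the design has 1 group. Depth is unknown, so a missing region is not absence of binding, and repeated promoters limit where reads can be placed.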
